A study of Homo sapiens with 18 samples.

Results

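Nestin, vimentin and 8 related intermediate filament genes were followed across OVCAR3-KRAB cells with and without the lncRNA XIST, in normoxia and in hypoxia. The members were named by symbol, NES, VIM, SYNM, DES, INA, NEFL, NEFM, NEFH, PRPH and GFAP, and all 10 were found among the 28277 genes of the count table. OVCAR3 is a long-used cell line from an ovarian carcinoma. The cells stably carried dCas9-KRAB, a catalytically dead Cas9 fused to a transcriptional repressor domain, which shuts down the promoter that a guide RNA points to. The control cells (sgCtl) carried the same dCas9-KRAB with a guide against a Gal4 promoter, and the knockdown (KD) cells carried sgXIST7 or sgXIST9, guides against different stretches of the XIST promoter. The lines were monoclonal, so that a guide and the clone that carries it cannot be told apart, and how many clones stand behind each group is not given in the sources used here. Each line was sampled in normoxia and after 24 h in a chamber at 1% oxygen, with 3 RNA-seq libraries in each of the 6 groups and 18 libraries in all. The study describes the replicates as biological, the labels do not say whether a culture, a clone or a day was repeated, and p-values measure the spread between these libraries.

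Intermediate filaments are the rope-like part of the cytoskeleton, built from rod-shaped proteins that pair and assemble without nucleotides or polarity. VIM, DES, PRPH and GFAP encode type III proteins, which can form filaments of their own: vimentin in mesenchymal cells, desmin in muscle, peripherin in peripheral neurons and glial fibrillary acidic protein in astrocytes. INA, NEFL, NEFM and NEFH encode the type IV proteins internexin and the light, medium and heavy neurofilament chains, which fill axons. Nestin (NES) and synemin (SYNM) are large proteins that cannot form filaments alone and join those of vimentin or desmin. Nestin is known as a marker of neural progenitors, and vimentin as a marker of mesenchymal and migrating carcinoma cells.

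The stretches just before the annotated starts of NES, INA and PRPH are shown because these are the genes whose levels moved most with the guide or with oxygen. RefSeq promoter sequences (GRCh38.p14) were found for 5 of the 10 members, NES, VIM, SYNM, INA and PRPH, and each begins at the same position as the gene in the count table. Each line below gives 250 bases read 5′ to 3′ on the gene's strand and ending at the base before the start, with any TATAAA in capitals. The windows are chr1:156677408-156677657 on the minus strand for NES, chr10:103276888-103277137 on the plus strand for INA and chr12:49294897-49295146 on the plus strand for PRPH.
NES: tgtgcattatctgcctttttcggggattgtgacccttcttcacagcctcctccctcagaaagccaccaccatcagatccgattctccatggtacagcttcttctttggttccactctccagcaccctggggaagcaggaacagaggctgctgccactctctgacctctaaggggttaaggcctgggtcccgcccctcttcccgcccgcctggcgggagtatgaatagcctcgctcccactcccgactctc
INA: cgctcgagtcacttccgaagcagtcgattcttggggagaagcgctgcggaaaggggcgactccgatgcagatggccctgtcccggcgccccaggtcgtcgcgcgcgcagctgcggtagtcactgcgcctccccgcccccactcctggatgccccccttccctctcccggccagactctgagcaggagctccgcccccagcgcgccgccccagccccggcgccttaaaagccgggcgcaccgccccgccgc
PRPH: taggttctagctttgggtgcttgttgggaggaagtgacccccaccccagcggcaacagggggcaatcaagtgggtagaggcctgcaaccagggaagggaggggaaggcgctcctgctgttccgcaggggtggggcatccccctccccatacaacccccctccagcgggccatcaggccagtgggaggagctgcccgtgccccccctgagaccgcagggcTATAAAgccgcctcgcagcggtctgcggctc
The letters ACGTG and GCGTG, the core that hypoxia-inducible factors are known to bind, were searched on both strands and occur in none of the 5 windows. Of all 35116 RefSeq windows of this length, 43.2% hold at least 1 of these motifs. TATAAA lies 31 to 26 bases before the start of PRPH and in none of the other 4 windows, and 10.7% of all windows hold it on either strand. CACCTG, an E-box bound by ZEB factors, occurs in the SYNM window and in 17.5% of all windows. The INA window has a GC content of 72.8% with 30 CpG pairs and the NES window one of 58.0% with 8 CpG pairs, against medians of 58.0% and 11 over all windows. These counts describe the letters in the windows and say nothing of binding.

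Total counts ranged from 11794375 to 24906936 per library, with a median of 17629433. Levels are given as CPM, counts scaled to a common library size after TMM normalization, a scale on which 3 counts, taken here as the detection limit, come to between 0.130 and 0.266 CPM. The targeted gene followed its labels. XIST was at 328.7, 867.0 and 241.9 CPM in the sgCtl libraries in normoxia, at 0.216, 0.222 and 0.0436 CPM in sgXIST7 and at 29.0, 53.6 and 52.4 CPM in sgXIST9. The sgXIST9 cells therefore kept more XIST than the sgXIST7 cells in these libraries. In hypoxia, replicate 3 was the library that stood apart for several members. It had the lowest total count of its group in each line. Its VIM level was 1.26 to 1.6 times the mean of replicates 1 and 2 in the 3 lines, its PRPH level 1.52 to 2.16 times and its NES level 0.574 to 0.736 times. Values without the 3 libraries are therefore given beside many of the hypoxia results, and those not printed may have moved too. Of 10 genes listed as markers of ovarian carcinoma epithelium, EPCAM averaged 159.9 to 243.1 CPM and PAX8 1.51 to 4.55 CPM, while CLDN3 had no count in any library and MUC16 had at most 4. The simple epithelial keratins KRT7 and KRT19 had at most 3 and 8 counts. In bulk RNA, fewer cells expressing a gene and less RNA per cell cannot be told apart.

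Vimentin RNA made up most filament RNA of the family in each group, and beneath it the make-up of the other members shifted with both guide and oxygen. Per kilobase of exon, VIM held 92.4% ± 0.682 (SD, n = 3) of the summed level of the 10 members in sgCtl in normoxia, 95.3% ± 0.287 in sgXIST7 and 93.9% ± 0.216 in sgXIST9. In hypoxia it held 84.7% ± 6.09 in sgCtl, from 80.7% to 91.7%, where NEFH held 9.76% and INA 4.54%, and 93.4% ± 0.647 and 92.3% ± 2.14 in sgXIST7 and sgXIST9. Among the remaining 9 members, NEFH held 81.5% ± 1.51 in sgCtl in normoxia but 49.1% ± 2.29 in sgXIST9, where NES rose from 1.65% ± 0.742 to 35.4% ± 2.09. In sgXIST7 cells in hypoxia, INA held 51.8% ± 2.81 of the same sum, NEFH 32.1% ± 3.68, PRPH 8.32% ± 3.40 and NES 3.07% ± 0.965. The ranges of NES share did not overlap between sgXIST9 in normoxia (33.0% to 36.6%) and any other group, the next being sgXIST9 in hypoxia (14.1% to 15.8%). Shares in a sum move together, so a smaller NEFH share is not by itself a lower NEFH level.

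**Figure D1:**
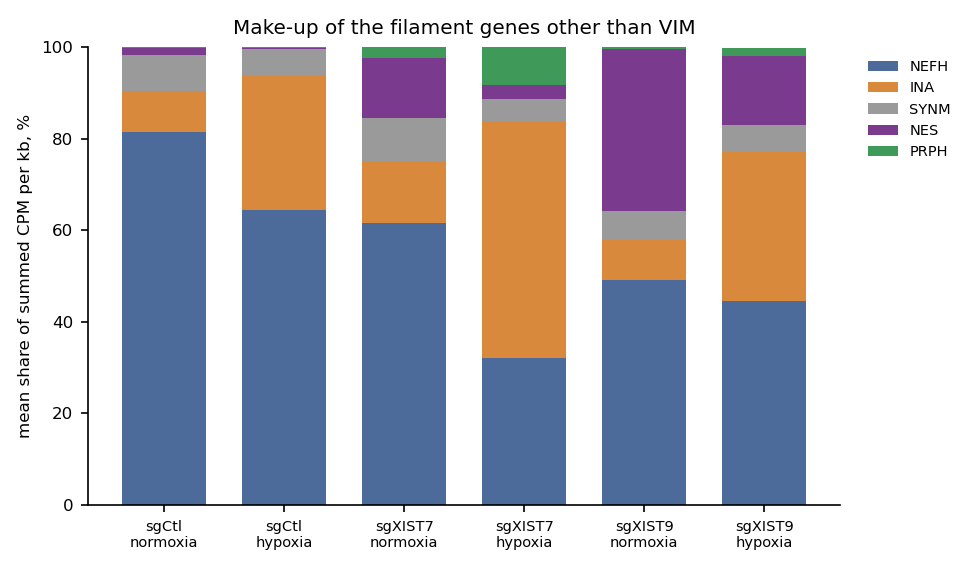
Stacked bars give the mean share, in percent, of each member in the summed CPM per kilobase of all members other than VIM, for each of the 6 groups (3 libraries each). NEFH takes 81.5% in sgCtl in normoxia, NES 35.4% in sgXIST9 in normoxia and INA 51.8% in sgXIST7 in hypoxia; the 4 members at or near 0 are too small to see.

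Of the 10 members, 6 passed the filter on low counts and were tested: NES, VIM, SYNM, INA, NEFH and PRPH. DES, NEFL, NEFM and GFAP had at most 4 counts in any library and were not tested. A gene was called when its Benjamini-Hochberg adjusted p-value over all 14938 genes tested was under 0.01 and its absolute log2 fold change above 1, by edgeR's quasi-likelihood test in a single fit of all 18 libraries. With 3 libraries against 3, the smallest two-sided p that an exact permutation test of a single gene can give is 0.1, and all called differences of members stood at 0.1, with libraries that did not overlap. Both KD clones are compared with the same sgCtl libraries, so their comparisons are not independent of each other.

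In normoxia, 2 of the 6 tested members were called in sgXIST7 against sgCtl, NES and PRPH, both higher, where 7.76% of all genes were called. In sgXIST9 against sgCtl it was 1 member, NES, also higher, against 7.70% of all genes. In hypoxia, 4 members were called in sgXIST7 against sgCtl, with NES, VIM and PRPH higher and NEFH lower, where 14.0% of all genes were called. In sgXIST9 against sgCtl in hypoxia 2 members were called, NES and PRPH, both higher, against 9.53% of all genes. The median log2 fold change of the 6 tested members was 0.63 in sgXIST7 and 0.45 in sgXIST9 in normoxia, and 1.00 and 0.39 in hypoxia, while the median of all genes lay between −0.02 and −0.01. PRPH had 2 to 6 counts in the sgCtl libraries in normoxia and 7 to 17 in hypoxia. It passed the filter on low counts through the KD groups, so a call of it against sgCtl could only be higher. The numbers of higher calls and these medians are therefore partly set by the filter. Hypoxia against normoxia called 2 members in sgCtl, with INA higher and NES lower, where 19.7% of all genes were called. It called 3 in sgXIST7, with INA and PRPH higher and NES lower, against 27.3% of all genes. In sgXIST9 it called 2, INA and PRPH, both higher, against 23.3% of all genes. Between the KD clones, sgXIST7 against sgXIST9 called 2 members in normoxia against 3.40% of all genes, and 2 in hypoxia against 4.46%, in each case NES (lower in sgXIST7) and PRPH (higher in sgXIST7).

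**Figure D2:**
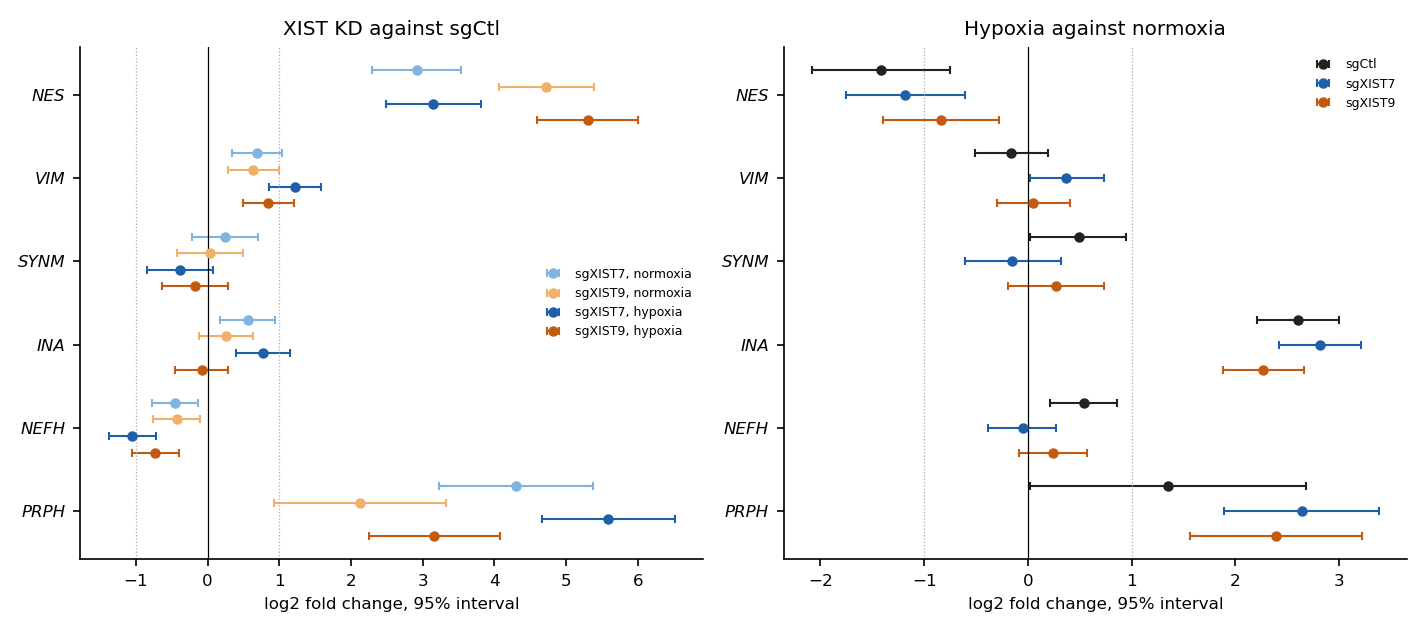
Log2 fold changes of the 6 tested members (points) with their 95% intervals (bars) from the edgeR fit; left, the KD clones over sgCtl at either oxygen level; right, hypoxia against normoxia in each clone. Dotted lines mark a log2 fold change of 1 in either direction. NES and PRPH lie above 0 in all 4 KD comparisons, and INA lies between 2.27 and 2.81 in the 3 hypoxia comparisons.

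NES, the nestin gene, was far higher in both KD clones than in control cells, most of all in sgXIST9, and it was lower after hypoxia, a difference called in sgCtl and sgXIST7. The gene spans chromosome 1 from 156668763 to 156677407 on the minus strand of hg38, with 4 exon blocks of 5568 bases in all. In normoxia its level was 18, 11.6 and 7.0 CPM in sgCtl, 95.4, 92.0 and 88.2 CPM in sgXIST7 and 314.8, 318.5 and 332.7 CPM in sgXIST9. In hypoxia it was 6.63, 3.87 and 3.01 CPM in sgCtl, 54.9, 33.9 and 32.5 CPM in sgXIST7 and 182.4, 211.5 and 144.9 CPM in sgXIST9. No library of any group overlapped with another group, although the highest sgCtl library in hypoxia lay just under the lowest in normoxia. The lowest sgXIST7 library was above the highest sgCtl library in both oxygen conditions, and the lowest sgXIST9 library above the highest sgXIST7 library.

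Against sgCtl in hypoxia, the log2 fold change of NES was 3.15 in sgXIST7 (standard error 0.31, adjusted p = 8.7e-07) and 5.30 in sgXIST9 (standard error 0.33, adjusted p = 4.4e-09). These are 8.89-fold and 39.4-fold, beside 7.55-fold and 26.4-fold in normoxia. The clones also differed from each other in hypoxia, with NES 4.43-fold higher in sgXIST9 than in sgXIST7 (log2 fold change −2.15 for sgXIST7 against sgXIST9, 95% interval −2.73 to −1.56, adjusted p = 4.3e-05). The order of NES, sgXIST9 above sgXIST7 above sgCtl, is not the reverse of the order of XIST, which was lowest in sgXIST7. In hypoxia NES fell by 1.42 on the log2 scale in sgCtl (standard error 0.32, adjusted p = 0.0013) and fell by 1.18 in sgXIST7 (standard error 0.27, adjusted p = 0.0012). In sgXIST9 the log2 fold change was −0.84 (standard error 0.26, adjusted p = 0.013), which was not called. Without the 3 hypoxia replicates 3 it was −0.70 (adjusted p = 0.053). The call in sgCtl was lost without the first normoxia library of sgCtl (log2 fold change −1.02, adjusted p = 0.012) and without the 3 hypoxia replicates 3 (−1.23, adjusted p = 0.015), and the call in sgXIST7 was lost without hypoxia replicate 2 of sgXIST7 (−1.06, adjusted p = 0.011). Relative to its filament partner, NES came to 0.136% ± 0.0612 (SD, n = 3) of the VIM level per kilobase in sgCtl in normoxia, 0.633% ± 0.0185 in sgXIST7 and 2.30% ± 0.0786 in sgXIST9.

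**Figure D3:**
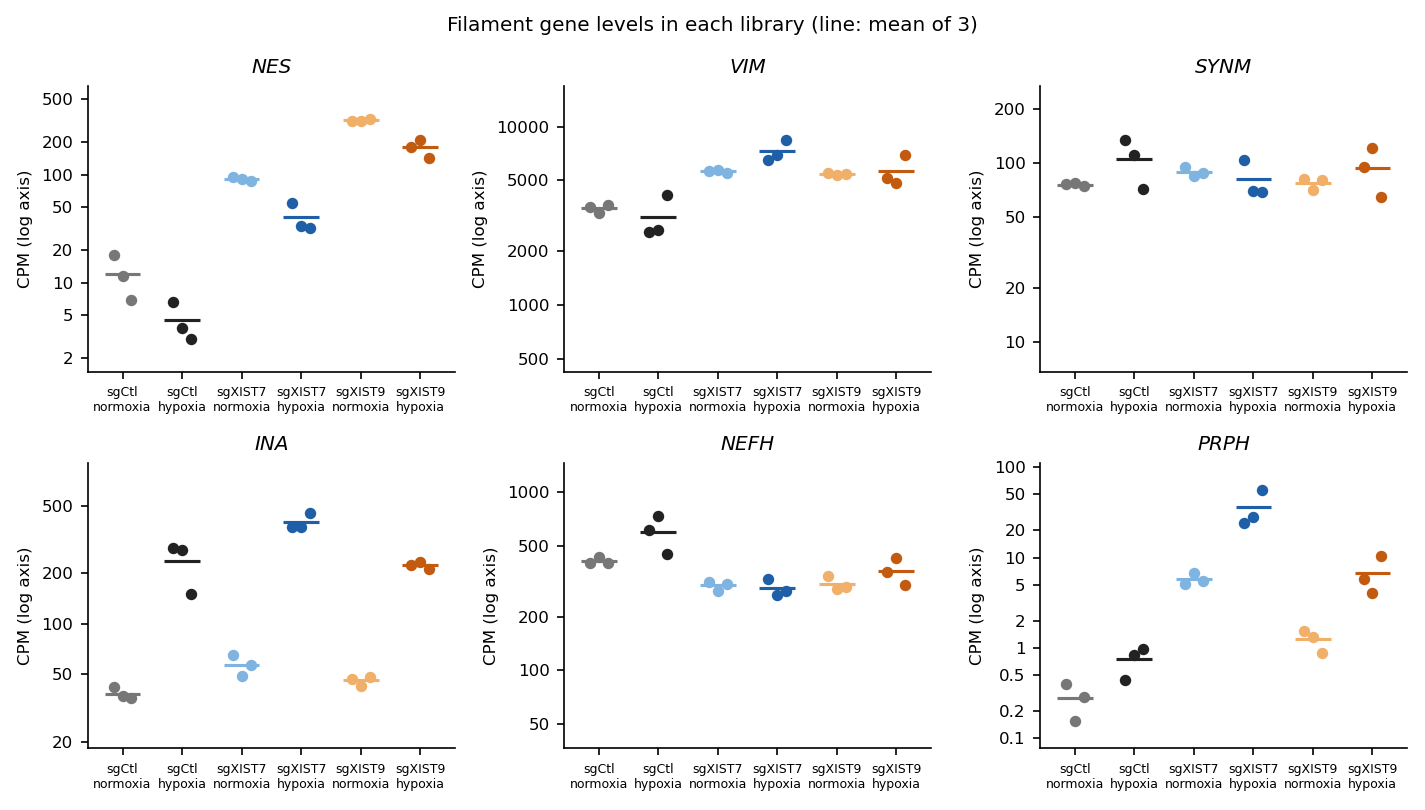
Level in CPM (log axis) of the 6 tested members in each of the 18 libraries, by guide and oxygen; points are libraries in the order of their replicate numbers and lines are means of 3. NES falls into steps of sgCtl, sgXIST7 and sgXIST9, INA splits by oxygen in all 3 lines, and PRPH is highest in sgXIST7 in hypoxia, from 24.1 to 56.4 CPM.

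VIM, the vimentin gene, was the most abundant member throughout, with higher values in both KD clones, of which the one in sgXIST7 in hypoxia was called. It lies on chromosome 10 from 17228241 to 17237593 on the plus strand, with 10 exon blocks of 2154 bases in all. In normoxia VIM was at 3544.9, 3260.4 and 3633.8 CPM in sgCtl, 5645.2, 5683.0 and 5512.6 CPM in sgXIST7 and 5484.1, 5383.9 and 5413.5 CPM in sgXIST9. Every KD library was above every sgCtl library, and the replicates of each KD clone lay close together. As log2 fold changes these were 0.69 for sgXIST7 (standard error 0.17, adjusted p = 0.0060) and 0.64 for sgXIST9 (standard error 0.17, adjusted p = 0.010), under the threshold on size in both.

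After hypoxia VIM was at 2574.8, 2633.0 and 4157.6 CPM in sgCtl, 6459.9, 6924.8 and 8446.5 CPM in sgXIST7 and 5158.7, 4841.9 and 6901.4 CPM in sgXIST9. Replicate 3 was the highest of its group in all 3 lines, yet every KD library stayed above every sgCtl library. VIM was called in sgXIST7 against sgCtl, at 2.33-fold (log2 fold change 1.22, standard error 0.17, adjusted p = 2.9e-05). In sgXIST9 it was 1.8-fold (log2 fold change 0.85, standard error 0.17, adjusted p = 0.00095), and it was called there when hypoxia replicate 3 of sgCtl was left out (log2 fold change 1.11, adjusted p = 1.1e-05). Hypoxia itself moved VIM little, with log2 fold changes of −0.16 in sgCtl, 0.37 in sgXIST7 and 0.05 in sgXIST9, and none of these passed an adjusted p of 0.05. Without the hypoxia replicates 3, they were −0.41 (adjusted p = 0.00042), 0.27 (adjusted p = 0.0096) and −0.11 (adjusted p = 0.26), and the level in sgCtl was then lower in hypoxia. Between the clones, VIM differed by a log2 fold change of 0.05 in normoxia, with a 95% interval from −0.30 to 0.40.

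SYNM, which encodes the nestin-like partner synemin, differed little. It lies on chromosome 15 from 99105080 to 99135593 on the plus strand, with 4 exon blocks of 7353 bases. Its level was 75.9, 76.9 and 74.4 CPM in sgCtl in normoxia and 135.3, 111.0 and 71.5 CPM in hypoxia. The KD libraries ranged from 70.9 to 95.5 CPM in normoxia and from 64.4 to 120.9 CPM in hypoxia, where they overlapped with sgCtl. No comparison of SYNM passed an adjusted p of 0.05, and its log2 fold changes against sgCtl lay between −0.39 and 0.24. The 95% intervals of these differences reach −0.85 and 0.71, so that smaller changes within them are not shown to be absent. Replicate 3 was the lowest SYNM library of each hypoxia group. Without those 3 libraries, SYNM was higher in hypoxia in sgCtl (log2 fold change 0.70, adjusted p = 0.00044) and in sgXIST9 (0.48, adjusted p = 0.0076), and lower in sgXIST7 than in sgCtl in hypoxia (−0.50, adjusted p = 0.015), each below the threshold on size.

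Internexin and the heavy neurofilament chain were the neuronal members with high levels, and they moved differently. INA lies on chromosome 10 from 103277138 to 103290346 on the plus strand, with 3 exon blocks of 3251 bases. In normoxia INA was at 41.9, 37.1 and 36.5 CPM in sgCtl, 64.9, 49.2 and 56.5 CPM in sgXIST7 and 47.0, 42.8 and 48.5 CPM in sgXIST9. After 24 h of hypoxia it was at 279.3, 274.1 and 148.9 CPM in sgCtl, 376.1, 374.0 and 450.5 CPM in sgXIST7 and 223.1, 232.5 and 210.2 CPM in sgXIST9. Every hypoxia library was above every normoxia library, whichever the guide. The rise was 6.08-fold in sgCtl (log2 fold change 2.60, standard error 0.19, adjusted p = 1.5e-08), 7.03-fold in sgXIST7 (2.81, standard error 0.19, adjusted p = 3.4e-09) and 4.82-fold in sgXIST9 (2.27, standard error 0.19, adjusted p = 3.8e-08). By the size of its rise INA ranked 535, 529 and 906 among the 14938 genes tested in the 3 lines. It was 1.71-fold higher in sgXIST7 than in sgCtl in hypoxia (log2 fold change 0.77, adjusted p = 0.0023), below the threshold on size, and its sgXIST9 libraries overlapped with sgCtl there (log2 fold change −0.08, 95% interval −0.45 to 0.29). Replicate 3 of sgCtl in hypoxia had 0.538 times the INA level of replicates 1 and 2. Without the hypoxia replicates 3, the INA differences from sgCtl in hypoxia were 0.44 in sgXIST7 (adjusted p = 0.0047) and −0.28 in sgXIST9 (adjusted p = 0.066), and the rises with hypoxia were 2.85, 2.73 and 2.31 in the 3 lines.

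NEFH, the gene of the heavy neurofilament chain, was the most abundant member after VIM in sgCtl, with lower values in KD cells, called in sgXIST7 in hypoxia. It lies on chromosome 22 from 29480218 to 29491390 on the plus strand, with 4 exon blocks of 3795 bases. In normoxia it was at 400.9, 433.7 and 398.6 CPM in sgCtl, 313.6, 279.2 and 305.8 CPM in sgXIST7 and 336.2, 286.2 and 293.3 CPM in sgXIST9. All 6 KD libraries were below all 3 sgCtl libraries, by log2 fold changes of −0.46 (adjusted p = 0.043) and −0.43 (adjusted p = 0.058). After hypoxia it was at 610.6, 729.9 and 446.0 CPM in sgCtl, 322.6, 264.9 and 277.9 CPM in sgXIST7 and 356.4, 425.5 and 299.0 CPM in sgXIST9. In hypoxia NEFH was lower in sgXIST7 than in sgCtl by 1.05 on the log2 scale (standard error 0.16, adjusted p = 6.2e-05). This call was lost for size without hypoxia replicate 2 of sgCtl (−0.87) or of sgXIST7 (−0.99). In sgXIST9 the difference was −0.73 (standard error 0.16, adjusted p = 0.0019), not called. In control cells NEFH was higher after hypoxia by a log2 fold change of 0.54 (adjusted p = 0.0083), also below the threshold on size. Without the hypoxia replicates 3 this was 0.71 (adjusted p = 5.3e-05). In sgXIST9 the change with hypoxia was then 0.36 (adjusted p = 0.012), against 0.24 (adjusted p = 0.20) with all libraries. In sgXIST7 the change with hypoxia was −0.05 with all libraries (adjusted p = 0.78). The call of NEFH in sgXIST7 in hypoxia is against a control mean of 595.5 CPM, beside 411.1 CPM in normoxia. NEFL and NEFM, the light and medium chains on chromosome 8, had 1 and 3 counts over all 18 libraries. For a group with no count, the exact Poisson 95% upper limit is 3.69 counts over its 3 libraries.

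PRPH, the peripherin gene, was near the detection limit in control cells and had higher values in KD cells, more in sgXIST7 than in sgXIST9 and more in hypoxia. It lies on chromosome 12 from 49295147 to 49298684 on the plus strand, with 9 exon blocks of 1798 bases. Counts in sgCtl in normoxia were 6, 2 and 5, in sgXIST7 118, 122 and 126, and in sgXIST9 35, 25 and 15. As levels, these are 0.403, 0.155 and 0.287 CPM, 5.10, 6.78 and 5.49 CPM, and 1.56, 1.33 and 0.876 CPM. After hypoxia PRPH was at 0.438, 0.844 and 0.975 CPM in sgCtl, 24.1, 28.0 and 56.4 CPM in sgXIST7 and 5.83, 4.04 and 10.4 CPM in sgXIST9. In each oxygen condition the libraries of the 3 lines did not overlap, in the order sgXIST7, sgXIST9, sgCtl from high to low. This is the reverse of the order of XIST in the same libraries. With 3 lines, in which guide and clone cannot be told apart, a relation of PRPH or NES to XIST level was not tested.

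Against sgCtl, PRPH was 19.7-fold higher in sgXIST7 in normoxia (log2 fold change 4.30, standard error 0.51, adjusted p = 7.1e-06) and 48.2-fold higher in hypoxia (5.59, standard error 0.44, adjusted p = 6.4e-08). In sgXIST9 it was 8.95-fold higher in hypoxia (3.16, standard error 0.43, adjusted p = 3.3e-05). In normoxia the log2 fold change of 2.12 in sgXIST9 just missed the call (standard error 0.57, adjusted p = 0.012), and it was called by DESeq2 (2.16, adjusted p = 0.0012). The control level rests on 13 counts over 3 libraries (exact Poisson 95% limits 6.92 to 22.2 counts), which covers counting error only. Hypoxia raised PRPH 6.23-fold in sgXIST7 (2.64, standard error 0.35, adjusted p = 6.7e-06) and 5.25-fold in sgXIST9 (2.39, standard error 0.39, adjusted p = 7.2e-05). In sgCtl the log2 fold change of 1.35 had a 95% interval from 0.02 to 2.68 (adjusted p = 0.084). Without the hypoxia replicates 3, the rise was 2.18 in sgXIST7 (adjusted p = 2.8e-07) and 1.96 in sgXIST9 (adjusted p = 8.2e-06). PRPH was also higher in sgXIST7 than in sgXIST9, by log2 fold changes of 2.18 in normoxia (adjusted p = 0.0012) and 2.43 in hypoxia (adjusted p = 0.00014), and the normoxia call was lost without replicate 3 of sgXIST9 (1.99, adjusted p = 0.011).

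DES and GFAP, the muscle and astrocyte members, stayed at or under the detection limit nearly throughout. DES, on chromosome 2 from 219418377 to 219426734, had 14 counts over the 18 libraries, of which 4, 1 and 2 were in sgCtl in hypoxia. GFAP, on chromosome 17 from 44903159 to 44915552, had 5 counts, never more than 1 in a library. GFAP shares exon bases with CCDC103 on the other strand, which had 40 to 215 counts.

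Some reads of VIM and PRPH may belong to genes on the other strand. VIM-AS1 overlaps VIM by 641 exon bases and had 108 to 684 counts, against 41193 to 152832 counts of VIM. LOC101927267 overlaps PRPH by 1188 exon bases and had 8 to 122 counts, against 2 to 653 counts of PRPH. In sgXIST9 in normoxia it had 43, 46 and 28 counts, against 35, 25 and 15 of PRPH. In sgCtl in normoxia it had 14, 8 and 12, against 6, 2 and 5. PRPH had more counts than LOC101927267 in every library of sgXIST7 and in every hypoxia library of sgXIST9. The library kit keeps strand, but whether strand was used in counting is not given in the sources used here, so reads of the pairs cannot be told apart. LOC101927267 had log2 fold changes of the same sign as PRPH, of 1.81 (adjusted p = 0.0013) and 1.41 (adjusted p = 0.010) in sgXIST7 and sgXIST9 against sgCtl in normoxia, and of 2.28 (adjusted p = 6.2e-05) and 1.86 (adjusted p = 0.00052) in hypoxia. VIM-AS1 had larger log2 fold changes than VIM in hypoxia, of 1.59 (adjusted p = 7.7e-06) in sgXIST7 and 1.32 (adjusted p = 6.1e-05) in sgXIST9 against sgCtl. The part that either gene has in the counts of its partner was not tested.

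**Figure D4:**
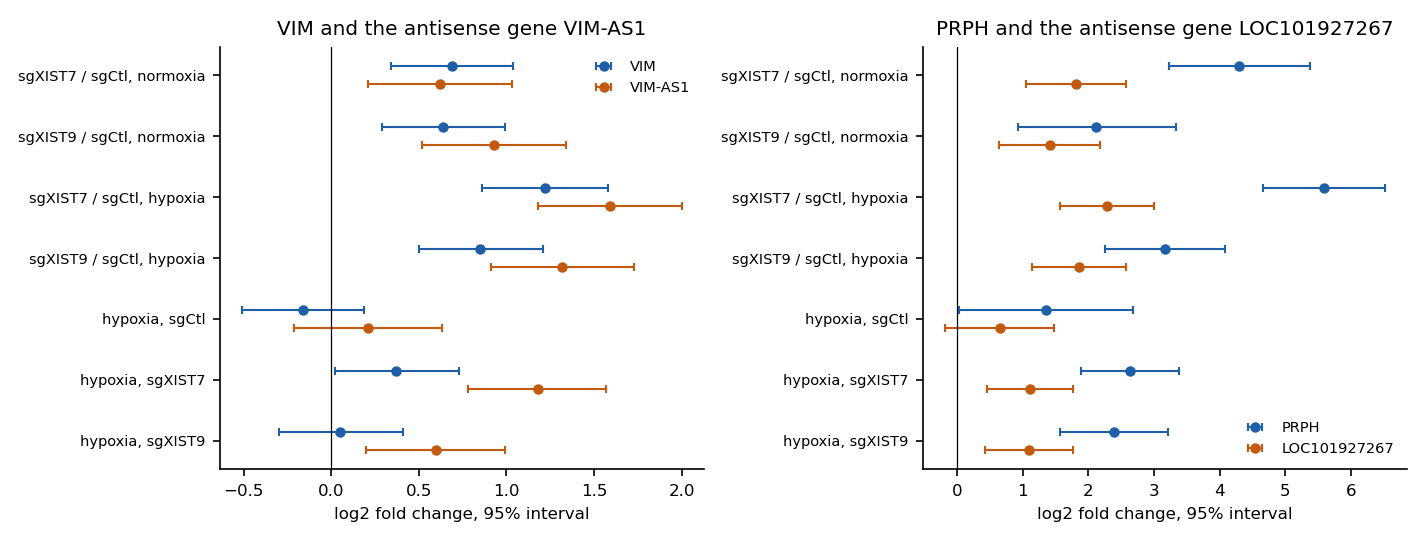
Log2 fold changes with 95% intervals of VIM and VIM-AS1 (left) and of PRPH and LOC101927267 (right) in 7 comparisons, 4 of a KD clone against sgCtl and 3 of hypoxia against normoxia. The antisense genes lie on the same side of 0 as their partners in all comparisons except that of VIM in sgCtl in hypoxia, where VIM is at −0.16 and VIM-AS1 at 0.21.

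The response of the members to hypoxia was compared between the lines directly, as an interaction. No member was called in sgXIST7 against sgCtl, where 1.52% of all genes were called, and 2 of 6 members had an unadjusted p under 0.05. No member was called in sgXIST9 against sgCtl, against 1.01% of all genes, and 0 had an unadjusted p under 0.05. Between sgXIST7 and sgXIST9 none was called either, against 0.167% of all genes, with 1 member at an unadjusted p under 0.05. DESeq2 called 0 members in each of the 3 interactions as well. The members with an unadjusted p under 0.05 in sgXIST7 were NEFH, whose response was lower than in sgCtl by 0.59 on the log2 scale (95% interval −1.05 to −0.13, adjusted p = 0.095), and VIM, at 0.53 (95% interval 0.03 to 1.03, adjusted p = 0.16). For PRPH the difference of response was 1.29 in sgXIST7 and 1.04 in sgXIST9, with intervals from −0.35 to 2.93 and from −0.64 to 2.72. For INA these were 0.21 (−0.32 to 0.74) and −0.34 (−0.87 to 0.20), and for NES 0.24 (−0.63 to 1.11) and 0.57 (−0.29 to 1.44). These intervals do not show an equal response. Without the hypoxia replicates 3, the differences were −0.72 for NEFH (adjusted p = 0.0037) and 0.68 for VIM (adjusted p = 0.00048) in sgXIST7. For SYNM in sgXIST7 the difference was then −0.73 (adjusted p = 0.013, against −0.63 and 0.20 with all libraries), and for INA −0.54 in sgXIST9 (adjusted p = 0.021) and −0.12 in sgXIST7 (adjusted p = 0.61), the latter with its sign turned. All of these stayed under the threshold on size.

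Among other filament genes, a keratin was higher in KD cells and a lamin lower in hypoxia. KRT8, a keratin of simple epithelia, was called higher in all 4 KD comparisons. It was the 1 gene of 8 tested that was called in sgXIST9 in normoxia, against 7.70% of all genes. The same held in hypoxia in sgXIST7, against 14.0% of all genes, and in sgXIST9, against 9.53%. The KRT8 level was 9.13 ± 0.43 CPM (SD, n = 3) in sgCtl, 34.7 ± 7.56 CPM in sgXIST7 and 33.8 ± 2.16 CPM in sgXIST9 in normoxia. In sgCtl it fell in hypoxia to 4.41 ± 0.485 CPM (log2 fold change −1.06, adjusted p = 0.00048). The second call in sgXIST7 in normoxia, where 7.76% of all genes were called, was BFSP1, a lens filament gene. It had 56 to 87 counts there and is named after its values were seen. Of 11 listed genes of lamins, lens filaments and keratins, 8 were tested. Their median log2 fold change in normoxia was 0.56 in sgXIST7 and 0.18 in sgXIST9, against −0.01 and −0.02 for all genes. In hypoxia it was 0.33 and 0.04, against −0.02 and −0.01. LMNB1, the lamin B1 gene, fell in hypoxia in all 3 lines, from 169.9 ± 6.05 to 40.9 ± 3.65 CPM in sgCtl, from 165.8 ± 10.3 to 49.6 ± 7.33 CPM in sgXIST7 and from 166.1 ± 2.91 to 42.5 ± 4.07 CPM in sgXIST9.

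Linker proteins tie filaments to junctions and to other parts of the cytoskeleton, and several of their genes were higher in KD cells in hypoxia. Of 14 tested, 5 were called higher and 0 lower in sgXIST7 against sgCtl in hypoxia, where 14.0% of all genes were called in either direction, and 3 higher and 0 lower in sgXIST9, against 9.53%. PLEC, which encodes plectin, a linker of vimentin, was at 735.1 ± 61.3 CPM in sgXIST7 in hypoxia against 277.5 ± 63.1 CPM in sgCtl (log2 fold change 1.41, adjusted p = 1.9e-05). DST, the dystonin gene, was higher there by 1.17 (adjusted p = 4.2e-05). UTRN (utrophin) and JUP (plakoglobin) were called in both clones, with log2 fold changes of 1.16 and 1.04 in sgXIST7 and 1.32 and 1.85 in sgXIST9. SYNC, which encodes syncoilin, a partner of desmin, was called higher in all 4 KD comparisons, and is named after its values were seen because its mean count was under 100. Its level was 1.14 ± 0.212 CPM in sgCtl in normoxia, 6.81 ± 1.18 CPM in sgXIST7 and 3.24 ± 0.512 CPM in sgXIST9. In normoxia SYNC was the 1 linker gene of 14 tested that was called in sgXIST7, against 7.76% of all genes. In sgXIST9 EPPK1 was called lower beside it, against 7.70% of all genes. EPPK1 had 1 count in each sgXIST9 library there, at which a call could only be lower. With hypoxia in sgCtl, 2 linker genes were called higher and 1 lower, against 19.7% of all genes. DSP, the desmoplakin gene, rose there from 66.3 ± 3.72 to 163.8 ± 20.3 CPM (log2 fold change 1.31, adjusted p = 1.4e-06). JUP was the gene called lower there (log2 fold change −1.08, adjusted p = 0.00025). The calls of JUP in KD cells in hypoxia are against this lowered control level. With hypoxia, 1 linker gene was called higher in sgXIST7 and 3 in sgXIST9, with 0 lower in both, against 27.3% and 23.3% of all genes.

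Several genes for enzymes that phosphorylate filaments were lower in hypoxia. None of the 11 tested, kinases, their activators and a phosphatase, was called higher in any comparison of guide or oxygen, and 4, 6 and 4 were called lower in hypoxia in sgCtl, sgXIST7 and sgXIST9, where 19.7%, 27.3% and 23.3% of all genes were called in either direction. AURKB, PLK1 and CDK1 are mitotic kinases that phosphorylate vimentin in dividing cells, and all fell in the 3 lines. AURKB went from 60.0 ± 1.97 to 17.7 ± 4.17 CPM in sgCtl, from 65.7 ± 2.05 to 10.1 ± 1.56 CPM in sgXIST7 and from 78.7 ± 6.84 to 10.2 ± 2.85 CPM in sgXIST9. PRKCA, a protein kinase C gene, was lower in sgXIST7 than in sgCtl in normoxia by 1.72 on the log2 scale (adjusted p = 1.8e-05) and lower in hypoxia in both clones. CDK5, a kinase of nestin and neurofilaments, was at 9.47 ± 0.691 CPM in sgXIST7 against 19.4 ± 1.97 CPM in sgCtl and 18.4 ± 1.13 CPM in sgXIST9 in normoxia.

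Among the tested transcription factors linked to nestin, more were called lower than higher in KD cells, in part by way of the filter on low counts. Of 12 listed, 6 were tested, and SOX2, SOX10, SOX11, POU3F2 and MYT1, among those not tested, had at most 9 counts in any library. In normoxia 1 was called higher and 3 lower in sgXIST7 against sgCtl, and 0 higher and 4 lower in sgXIST9, against 7.76% and 7.70% of all genes called in either direction, with median log2 fold changes of −1.14 and −1.92 over the 6. SOX9, a progenitor factor, had 77 to 87 counts in the sgCtl libraries in normoxia, 3 to 4 in sgXIST7 and 0 to 4 in sgXIST9. SOX1 had 99 to 140 counts in sgCtl, 0 in each sgXIST7 library and 2 to 5 in sgXIST9. Both are named after their values were seen. In the KD libraries of either oxygen level SOX1 had at most 10 counts and SOX9 at most 7. They passed the filter on low counts through the sgCtl groups, so a call of them could only be lower in KD cells. The surplus of lower calls and the medians over the 6 are therefore partly set by the filter. HES1, a Notch target, rose with hypoxia in each line, from 1.08 ± 0.462 to 6.16 ± 0.591 CPM in sgCtl, from 4.34 ± 1.32 to 69.0 ± 28.8 CPM in sgXIST7 and from 2.11 ± 0.175 to 15.8 ± 4.97 CPM in sgXIST9. NES had lower values in hypoxia in the same libraries. Against sgCtl, HES1 was called higher in sgXIST7 in normoxia (log2 fold change 1.99, adjusted p = 0.0014). In hypoxia it was called higher in sgXIST7 (3.48, adjusted p = 5.3e-07) and in sgXIST9 (1.35, adjusted p = 0.0040). In these comparisons NES was higher as well. A relation between HES1 and NES was not tested.

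Regulators of vimentin and of the mesenchymal state were split in normoxia, and in hypoxia the clones differed. Of 10 listed, 8 were tested. In sgXIST7 against sgCtl in normoxia, SNAI2 and PRRX1 were called higher and ZEB2, TWIST1 and FOSL1 lower, and in sgXIST9 SNAI2 was called higher and ZEB2 and TWIST1 lower, against 7.76% and 7.70% of all genes called. ZEB2 went from 29.2 ± 3.30 CPM in sgCtl to 2.40 ± 0.521 CPM in sgXIST7 (log2 fold change −3.61, adjusted p = 2.7e-08), and had 1 to 2 counts in each sgXIST9 library against 419 to 462 in sgCtl. SNAI2 had 3 to 7 counts in the sgCtl libraries in normoxia, 49 to 93 in sgXIST7 and 102 to 132 in sgXIST9. TWIST1, with 48 to 79 counts in sgCtl, had 7 to 24 in sgXIST7 and 0 to 2 in sgXIST9. PRRX1 had 1 to 5 counts in sgCtl and 15 to 24 in sgXIST7 in normoxia. SNAI2, PRRX1 and TWIST1 are named after their values were seen. SNAI2 and PRRX1 passed the filter on low counts through KD groups, so a call of them against sgCtl in normoxia could only be higher. At their counts in sgXIST9 in normoxia, ZEB2 and TWIST1 could only be called lower there. The split is therefore partly set by the filter. In hypoxia 2 were called higher and 3 lower in sgXIST7 against sgCtl, where 14.0% of all genes were called. In sgXIST9 in hypoxia 0 were called higher and 4 lower, against 9.53% of all genes. PRRX1 was called higher in sgXIST7 (log2 fold change 2.24) and lower in sgXIST9 (−3.50) in hypoxia, at 0 to 2 counts in the sgXIST9 libraries. VIM had higher values in both KD clones than in sgCtl at either oxygen level.

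The genes whose levels were most like those of NES and of VIM over the 18 libraries were found by Pearson correlation of log2 CPM among 10705 genes. For NES they were ZNF793 (r = 0.988), ZBTB46, ZNF347, STMN3 and MBP (r = 0.962). STMN3, a stathmin of neurons, averaged 17.2, 88.5 and 149.7 CPM in sgCtl, sgXIST7 and sgXIST9 in normoxia and 8.16, 68.5 and 88.4 CPM in hypoxia. ZNF793, a zinc finger gene, averaged 1.38, 7.91 and 16.2 CPM in normoxia. For VIM they were DLG1 (r = 0.975), EIF3H, PDIA6, PKP3 and GTF2I (r = 0.956), and DLG1, a scaffold of cell polarity, averaged 228.2, 476.5 and 446.8 CPM in normoxia. These values describe libraries that share normalization and group structure. Among the members, VIM and NEFH had r = −0.90 over the 18 libraries and −0.83 after the group means were removed, and VIM and PRPH had 0.84 and 0.74. Not every pair kept its sign. NES and VIM had 0.64 and −0.59, and NES and NEFH −0.67 and 0.44. The values without group means also carry the hypoxia replicates 3, in which VIM and PRPH were high in each line. NEFH was low in replicate 3 of sgCtl and of sgXIST9. In sgXIST7 its replicate 3 (277.9 CPM) lay between replicates 1 and 2 (322.6 and 264.9 CPM).

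Markers of the cell types that use these filaments were read as whole lists. Of 12 neuron markers, 5 to 7 had more than 3 counts in some library of a group, while DCX, STMN2 and SNAP25 had at most 1 count in any library. The summed level of the list ranged from 331.5 to 390.2 CPM in sgCtl in normoxia and from 573.0 to 837.6 CPM in hypoxia, from 417.2 to 467.7 and from 754.7 to 921.7 CPM in sgXIST7, and from 309.3 to 315.5 and from 485.5 to 786.9 CPM in sgXIST9. TUBB3, UCHL1 and ENO2 made up most of this sum, and ENO2, a glycolytic enzyme of neurons, rose from 27.4 to 227.7 CPM on average in sgCtl. MAP2, a dendritic microtubule protein, averaged 0.190 CPM in sgCtl, 15.1 CPM in sgXIST7 and 18.6 CPM in sgXIST9 in normoxia. Other neuron markers did not follow it: in the same order TUBB3 averaged 155.3, 242.2 and 100.1 CPM and SYP 3.82, 2.03 and 3.50 CPM. Of 8 glial markers, 2 or 3 were above the limit in a group, and MBP accounted for most of their sum, which was 29.2 to 32.6 CPM in sgCtl and 109.0 to 114.6 CPM in sgXIST9 in normoxia. Of 10 muscle markers, 2 to 4 were above the limit, and the sum was 22.4 to 52.1 CPM in sgCtl, 259.4 to 354.6 CPM in sgXIST7 and 152.9 to 197.3 CPM in sgXIST9 in normoxia, with MYOD1 and MYF5 at 0 in all groups. ACTA2, the smooth muscle actin gene, averaged 36.4, 301.5 and 174.4 CPM in the same order and made up most of this sum. Of 9 fibroblast markers, 4 to 7 were above the limit, and the sum was 941.0 to 986.2 CPM in sgCtl, 1128.7 to 1203.8 CPM in sgXIST7 and 653.6 to 715.9 CPM in sgXIST9 in normoxia, so that the KD clones lay on either side of sgCtl. COL3A1, a collagen III gene, made up most of this sum, at 950.7, 1017.8 and 600.8 CPM on average in the same order. The markers did not move together. COL1A2, a collagen I gene, averaged 0.275, 96.7 and 49.2 CPM in that order, while DCN, at few counts, averaged 0.406, 0.0329 and 0.0343 CPM. The part of these markers in the filament results was not tested.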

How the data were processed

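RNA-seq was made from 18 libraries of OVCAR3-KRAB cells (rRNA-depleted, stranded, paired-end). The authors trimmed reads with Trimmomatic, checked them with FastQC, used HISAT2 for alignment to the hg38 build and featureCounts for counting per gene, and the deposited values are whole-number counts per gene, not normalized. Versions and the strand setting of the counting are not given in the sources used here. Of 28279 lines, 2 broken records without counts were left out, and 28277 genes were used.

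The counts were analysed with edgeR 4.0.16 in R 4.3.3: TMM normalization, filterByExpr (minimum count 10, minimum total 15), and a robust quasi-likelihood fit of 6 group means, with a common dispersion of 0.0321. A call needed a log2 fold change beyond 1 in either direction at a Benjamini-Hochberg adjusted p under 0.01; the study set the same limits, with DESeq2. CPM used TMM-normalized library sizes, and CPM per kilobase was used for shares between genes. Figures were drawn with matplotlib 3.10.9. The fit was tested on simulated counts with known changes. Counting limits are exact Poisson intervals and cover counting error only.

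The members and gene lists were chosen with earlier results of these data known. A gene of the lists is not reported here. All members were named, with XIST and the genes that overlap members. From each list, up to 4 called genes of the largest change were named among those with a mean of at least 100 counts, and the 5 genes most correlated with NES and with VIM. Alternatives were DESeq2 1.42.0, other scalings and filters, a replicate block, a fit of only the groups compared, an adjusted p under 0.05, and leaving out libraries. Same-numbered libraries deviated together (all 3 correlations over 0.1) in sgXIST7 against sgCtl in normoxia (0.148, 0.379 and 0.195) and in sgXIST9 against sgCtl in hypoxia (0.197, 0.520 and 0.566), and in no other comparison of groups. The labels do not say what a number stands for, so the pairing comes from the data alone.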

Additional observations from a re-analysis of the deposited data

How the results depend on the processing

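No member changed direction past the threshold under any alternative, and 1925 of the member values kept their side of the threshold, while 10 passed it newly and 8 lost it. The members called in sgXIST9 against sgCtl in normoxia went from 1 to 2, by PRPH, with DESeq2, with the replicate block (log2 fold change 2.19, adjusted p = 0.0069), with only the groups compared, without the hypoxia replicates 3 and at an adjusted p under 0.05, and ranged from 1 to 2 when single libraries were left out. Those called in hypoxia against normoxia in sgCtl went from 2 to 1, by NES, with only the groups compared (−1.40, adjusted p = 0.024) and without the hypoxia replicates 3, and ranged from 1 to 2 when single libraries were left out. Between the clones, the members called ranged from 1 to 2 in normoxia when single libraries were left out, and were 1 in hypoxia with only the groups compared, where PRPH was lost (2.44, adjusted p = 0.014). The replicate block changed no other call of a member, including in the 2 paired comparisons. The causes were not tested.

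Over all genes, fitting only the groups compared called 1113 genes instead of 2093 in sgXIST7 against sgCtl in hypoxia, 641 instead of 1423 in sgXIST9, and 323 instead of 666 between the clones in hypoxia, which was 434 without hypoxia replicate 2 of sgXIST7. The interactions moved most. For sgXIST7 against sgCtl the 227 genes called became 548 with DESeq2, 371 with the replicate block, 79 with only the groups compared, 706 at an adjusted p under 0.05, 1198 without hypoxia replicate 3 of sgCtl and 1288 without the hypoxia replicates 3. For sgXIST9 the 151 became 359 with DESeq2, 90 with only the groups compared, 468 at an adjusted p under 0.05, 725 without hypoxia replicate 3 of sgCtl and 822 without the hypoxia replicates 3. Between the clones the 25 became 146 with DESeq2, 39 with no filter on low counts, 56 with the replicate block, 15 with only the groups compared, 130 at an adjusted p under 0.05 and 289 without the hypoxia replicates 3. PRPH in sgCtl and the 4 members that were not tested rest on few counts, and the part of depth in this was not tested.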
